A study of Mus musculus with 9 samples.

Results

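Hepatocytes beside the central vein of the liver lobule keep a program of genes that depends on WNT signals, and 10 such genes were followed in the livers of mice on a normal or a high-fat diet. The genes were chosen by name as known pericentral, WNT-dependent genes and kept if above 0 in at least 1 liver. All 10 met this rule, out of 23183 gene symbols in the tables, of which 16889 were above 0 in at least 1 liver. Liver mRNA of 9 male C57BL/6J mice was sequenced at postnatal day 100, with 1 library per mouse. The ND group (mice 6, 7, and 9) received a normal diet with 14% fat, and the HFD group (mice 1, 2, and 3) a high-fat diet with 60% fat, each for 10 weeks. The PRF 50 group (mice 3, 9, and 10) received the same high-fat diet for 10 weeks and, during the last 5 weeks, 50 mg/kg/day of PRF by mouth. PRF is a fraction rich in polymethoxyflavones, which are methylated citrus flavonoids, prepared from the leaf of Citrus sunki. All groups share the inbred strain, and the numbers name animals and pair none of them between groups.

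In the liver lobule, blood flows from the portal vein to the central vein, and hepatocytes along this path carry out different tasks. Endothelial cells of the central vein release WNT ligands and R-spondin, which stabilize β-catenin in the neighboring hepatocytes. With TCF/LEF factors, β-catenin then turns on pericentral genes, among them those for glutamine synthesis, and genes that dampen the WNT signal itself. Periportal hepatocytes, which receive little of this signal, carry out urea synthesis and much of gluconeogenesis.

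Expression is in FPKM, fragment counts scaled to transcript length and library size, on a log2 scale taken as log2(FPKM + 1) because its lowest value is 0. The tissue label was checked against hepatocyte markers. Of 10 hepatocyte markers, 9 were in the tables, all 9 with a mean above 1 FPKM, and the most abundant, Apoa2, had a mean of 18938 FPKM. Albumin (Alb) is listed at 0 in all 9 livers, so a gene listed at 0 may still be transcribed. Erythroid markers were abundant, led by Hba-a1 with a mean of 96.3 FPKM. Of the pancreas markers, 4 of 6 are listed at 0 in all livers, and of the adipose markers 2 of 5. Markers of pancreas, adipose tissue, and lymphocytes had low means over the 9 livers. The most abundant were Cela2a for pancreas (0.617 FPKM), Cidea for adipose tissue (0.393 FPKM), and Nkg7 for lymphocytes (0.775 FPKM). Single livers were higher. Adipose markers summed to 0.260, 1.24, and 2.10 FPKM in HFD mice 1, 2, and 3. Cidea averaged 1.08 FPKM in the HFD group, of a mean sum of 1.20, and 0.026 in the ND group. Plin1 and Lep are the adipose markers listed at 0, so the HFD sum rests mostly on Cidea and does not by itself show adipose tissue. Lymphocyte markers summed to 4.32, 3.40, and 1.81 FPKM in ND mice 6, 7, and 9. The part of such cells in the values was not tested. Read counts were not used here, but the low values give the relative depth of the libraries. With HFD mouse 1 set to 1, HFD mice 2 and 3 had depths of 1.17 and 1.60. ND mice 6, 7, and 9 had 1.06, 1.15, and 1.11. PRF 50 mice 3, 9, and 10 had 0.981, 1.51, and 0.963.

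The members spanned a wide range of expression levels. Glul, the glutamine synthetase that captures ammonia in the last hepatocytes before the central vein, had a mean of 457 FPKM over the 9 livers. Oat, the ornithine aminotransferase of the same zone, had 424 FPKM, and the lowest and highest livers of both genes overlapped. The glutamate transporter gene Slc1a2 followed with 38.0 FPKM and stood apart from both neighbors in this order. Next came the dicarboxylate transporter gene Slc13a3 with 7.60 FPKM, the transcriptional repressor gene Tbx3 with 7.23 FPKM, and the ubiquitin ligase gene Rnf43 with 5.47 FPKM, whose ranges overlapped one another in this order. The remaining genes of WNT feedback and reception lay lower, without overlap with Rnf43. Znrf3 had 1.72 FPKM, Axin2 1.71, Lgr5 1.61, and Nkd1 1.24, and each overlapped its neighbor. All 10 genes were above 0 in 9 of 9 livers and passed the minimum mean of 1 FPKM in all 3 comparisons, so none was left out of a test. In bulk liver RNA, fewer pericentral cells and less RNA per cell cannot be told apart. The constant of 1 makes the fold changes of the least abundant genes appear smaller than they are in FPKM.

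Promoter sequences were examined for the letters that TCF/LEF factors recognize, since the members are grouped by their dependence on β-catenin. RefSeq (GRCm38.p6) gave windows of 250 bases before to 50 bases after the transcription start for 7 of the 10 genes, 8 windows in all because Rnf43 has 2. Lgr5, Tbx3, and Znrf3 had no window in the promoter set used here. The part of the window before its first annotated exon is shown for Glul, as the most abundant member, for Axin2, a widely used readout of WNT signaling, for Slc1a2, which holds a match, and for Slc13a3, which had the largest fold changes. Capitals mark a match to CTTTGAA or CTTTGAT on either strand, and lower case marks all other bases.
Glul (chr1:153899679-153899928, + strand): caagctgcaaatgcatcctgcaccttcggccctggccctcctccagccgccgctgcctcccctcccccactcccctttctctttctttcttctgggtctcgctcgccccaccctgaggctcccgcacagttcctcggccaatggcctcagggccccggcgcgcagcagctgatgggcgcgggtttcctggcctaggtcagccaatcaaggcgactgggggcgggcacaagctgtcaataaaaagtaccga
Axin2 (chr11:108920099-108920348, + strand): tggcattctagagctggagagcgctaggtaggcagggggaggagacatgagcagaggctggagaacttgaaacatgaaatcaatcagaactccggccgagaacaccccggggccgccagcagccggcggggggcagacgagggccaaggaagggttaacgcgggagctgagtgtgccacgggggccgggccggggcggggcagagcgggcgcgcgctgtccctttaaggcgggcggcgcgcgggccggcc
Slc1a2 (chr2:102706188-102706355, + strand): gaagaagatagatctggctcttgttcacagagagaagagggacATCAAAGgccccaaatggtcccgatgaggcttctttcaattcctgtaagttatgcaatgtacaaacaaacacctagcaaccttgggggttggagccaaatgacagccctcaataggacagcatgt
Slc13a3 (chr2:165473231-165473447, - strand): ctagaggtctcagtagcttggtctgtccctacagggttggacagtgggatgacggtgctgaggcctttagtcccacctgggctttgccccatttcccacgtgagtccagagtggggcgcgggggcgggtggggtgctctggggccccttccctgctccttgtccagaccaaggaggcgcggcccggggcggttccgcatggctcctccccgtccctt
A match was found in 1 of the 8 windows, that of Slc1a2, where ATCAAAG (the reverse complement of CTTTGAT) begins at position -207 from the RefSeq start. This stretch lies inside the Slc1a2 gene as annotated by GENCODE (chr2:102658659-102790784), downstream of its outermost start and in no annotated exon. Of all 32851 promoter windows, 2842 (8.65%) held a match, and so did 591 of the 9913 windows (5.96%) of genes averaging 1 FPKM or more. Among other pericentral hepatocyte genes, 7 of 20 windows (35.0%) held a match, and among periportal genes 2 of 17 (11.8%). No test was made of these shares. A match is a description of letters and not a binding site, and its absence says nothing of more distant elements. Stretches from 6 of the pericentral genes are given for comparison with Slc1a2. They belong to the transcription factor gene Sp5, the cytochrome P450 genes Cyp2e1, Cyp1a2, and Cyp2c29, the glutathione transferase gene Gstm3, and the secreted factor gene Lect2. The matches of the pericentral gene Psmd4 and of the periportal genes Hal and G6pc are not shown.
Sp5 (chr2:70474809-70474835, + strand): gcaaggccccCTTTGATcaggaaaatc
Cyp2e1 (chr7:140763674-140763700, + strand): aagggtcagcCTTTGAAatgatagcca
Cyp1a2 (chr9:57683883-57683905, - strand): tattctTTCAAAGacatatacct
Cyp2c29 (chr19:39286956-39286982, + strand): ttttatctctATCAAAGagacaaagtc
Gstm3 (chr3:107969293-107969319, - strand): gggcttcgggTTCAAAGtctctgagga
Lect2 (chr13:56548554-56548580, - strand): gcttctccagATCAAAGgctttggccg

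Glul lies at chr1:153899944-153909723 and its exons overlap those of Teddm2 on the other strand, which had a mean of 0.182 FPKM. On the log2(FPKM + 1) scale, Glul was 8.89, 8.59, and 8.70 in ND mice 6, 7, and 9. In HFD mice 1, 2, and 3 it was 8.70, 8.97, and 9.04, and in PRF 50 mice 3, 9, and 10 it was 8.94, 8.74, and 8.91. The 3 groups overlapped, and the highest liver exceeded the lowest by 1.37 times in FPKM, the smallest such ratio among the members. The spread within groups was near the middle of all genes, with a pooled SD of 0.15 against a median of 0.16 over 10048 genes.

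Oat (chr7:132557478-132576398), which passes nitrogen from ornithine to glutamate, varied more. The level was 9.48, 8.92, and 8.70 in the ND mice, 8.11, 8.35, and 9.0 in the HFD mice, and 8.65, 8.49, and 8.35 in the PRF 50 mice, in the order of their numbers. All 3 PRF 50 livers were below all 3 ND livers, while the HFD group spanned both, with mice 1 and 2 low and mouse 3 within the ND range. Oat exceeded Glul in FPKM in all 3 ND livers, with a Glul to Oat ratio of 0.666, 0.792, and 0.997. The ratio was 1.51, 1.54, and 1.02 in the HFD livers and 1.22, 1.19, and 1.47 in the PRF 50 livers, so that Glul was the more abundant in all 6. The ND ratios thus did not overlap those of the other groups. This ratio was formed after the values had been seen and was not tested.

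Slc1a2, which carries glutamate into the pericentral cell for glutamine synthesis, had little spread in the ND and HFD groups. Its values were 5.30, 5.06, and 5.26 in the ND mice and 5.19, 5.01, and 5.27 in the HFD mice. PRF 50 mice 3, 9, and 10 had 5.29, 5.65, and 5.44, each above the highest HFD mouse, while mouse 3 lay below ND mouse 6. Slc13a3 (chr2:165405028-165473230) encodes a sodium-coupled carrier of succinate and other dicarboxylates. It was 2.13, 2.68, and 1.79 in the ND mice, 2.70, 3.15, and 3.42 in the HFD mice, and 4.12, 3.60, and 2.91 in the PRF 50 mice. The ND livers lay below all 6 livers of the high-fat diet, with ND mouse 7 just under HFD mouse 1. The HFD and PRF 50 groups overlapped. Slc13a3 had the widest range of the members, 2.47 to 16.4 FPKM or 6.64 times, and its pooled SD within groups of 0.48 was larger than that of 96.4% of genes.

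Among the genes of WNT reception, Lgr5, a receptor for R-spondins, was 1.25, 1.74, and 1.26 in ND mice 6, 7, and 9. It was 1.36, 1.17, and 1.30 in the HFD mice and 1.40, 1.40, and 1.52 in the PRF 50 mice. ND mouse 7 was the highest of the 9 livers, and the PRF 50 livers all lay above the HFD livers. The ubiquitin ligases encoded by Rnf43 and Znrf3 remove Frizzled receptors from the cell surface. Rnf43 was 2.62, 2.74, and 2.58 in the ND mice, 2.31, 2.59, and 2.88 in the HFD mice, and 2.84, 2.82, and 2.79 in the PRF 50 mice. The PRF 50 livers were close to each other and above the ND livers, and HFD mice 1 and 3 held the lowest and the highest value of all. Znrf3 was 1.41, 1.73, and 1.32 in the ND mice, 1.48, 1.32, and 1.34 in the HFD mice, and 1.44, 1.49, and 1.42 in the PRF 50 mice, with overlap of all groups. As for Lgr5, its highest liver was ND mouse 7.

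Axin2, a scaffold of the β-catenin destruction complex that is itself induced by WNT, was 1.41, 1.53, and 1.43 in the ND mice and 1.34, 1.34, and 1.32 in the PRF 50 mice. The HFD mice spread from 1.12 in mouse 1 to 1.67 and 1.73 in mice 2 and 3, and so enclosed both other groups. The PRF 50 livers were all below the ND livers. Nkd1, an inhibitor that binds Dishevelled, was 1.11, 1.19, and 1.19 in the ND mice, 0.98, 1.06, and 1.11 in the HFD mice, and 1.19, 1.08, and 1.51 in the PRF 50 mice. PRF 50 mouse 10 stood above all other livers in Nkd1, and the groups overlapped. Tbx3, a T-box transcription factor downstream of β-catenin in hepatocytes, was 2.93, 2.82, and 2.62 in the ND mice, 2.53, 3.35, and 3.58 in the HFD mice, and 3.14, 3.29, and 2.74 in the PRF 50 mice. HFD mouse 1 was the lowest liver in Tbx3 and HFD mouse 3 the highest, so the HFD range enclosed both other groups. The pooled SD of Tbx3 within groups was larger than that of 92.3% of genes, and that of Oat larger than that of 92.0%.

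**Figure D1:**
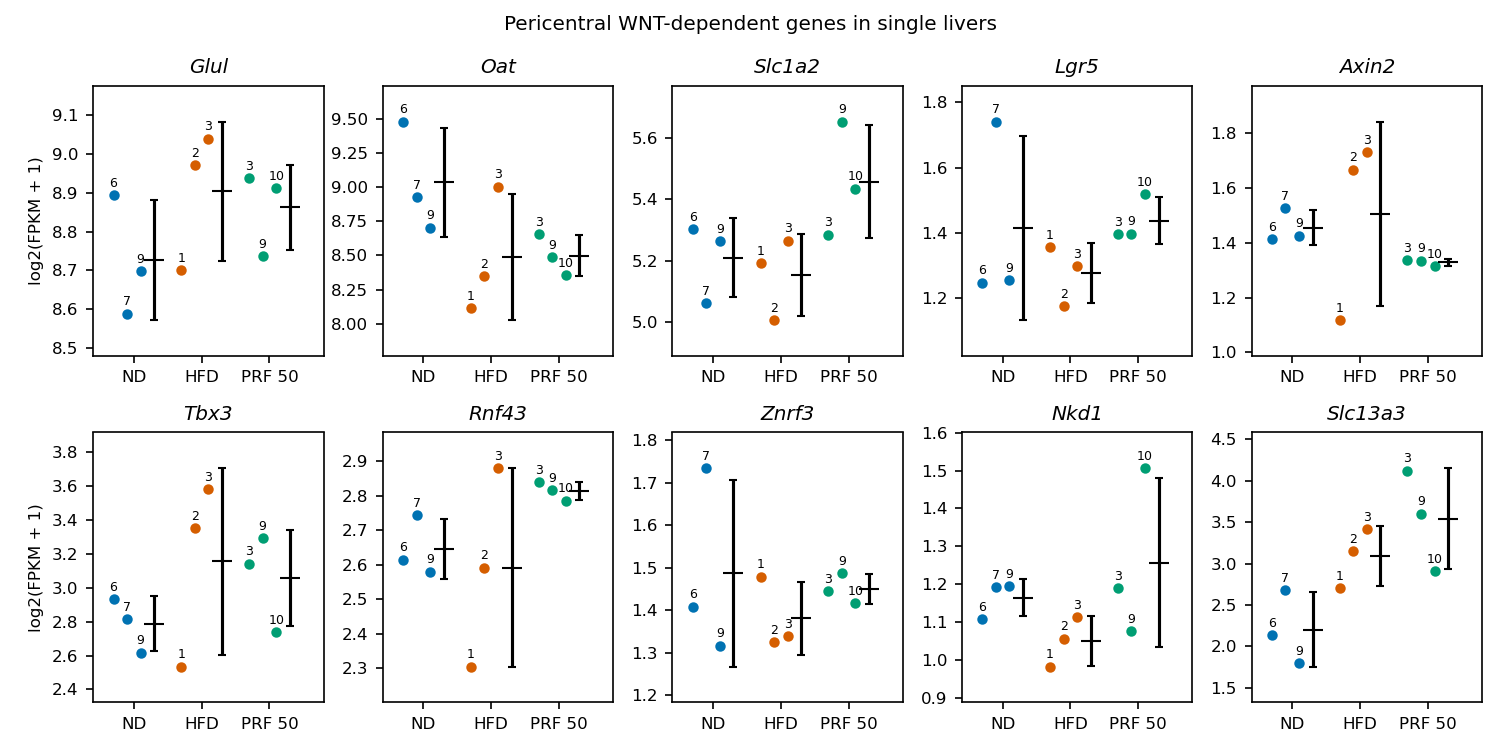
Expression of the 10 genes in single livers, in log2(FPKM + 1) on the vertical axis, which differs between panels; points are mice with their numbers, and bars show the mean ± SD of 3 mice per group. Slc13a3 is lowest in the 3 ND livers, Oat is lower in the PRF 50 than in the ND livers, and HFD mouse 1 is the lowest of its group in 7 of the 10 genes.

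HFD vs. ND asks what 10 weeks of fat-rich food leave changed in these genes. None of the 10 genes passed the threshold, and the dicarboxylate transporter gene Slc13a3 showed the largest difference. Its mean ± SD was 2.20 ± 0.45 (ND) and 3.09 ± 0.36 (HFD), 1.85-fold higher on the log2(FPKM + 1) scale. The log2 fold change was 0.89, with a standard error of 0.25 and a 95% interval from 0.30 to 1.47 (limma, adjusted p = 0.165). Oat had the largest negative difference, a log2 fold change of -0.55 with an interval from -1.18 to 0.09 (limma, adjusted p = 0.410). Tbx3 had a log2 fold change of 0.37 (interval -0.21 to 0.94, limma, adjusted p = 0.543), and Glul one of 0.18 (interval -0.17 to 0.52, limma, adjusted p = 0.619). Single mice moved these 3 values. Without HFD mouse 1, Tbx3 was 0.68, Oat -0.36, and Glul 0.28. Tbx3 was 0.15 without HFD mouse 3, Oat -0.33 without ND mouse 6, and Glul 0.11 without HFD mouse 3 or without ND mouse 7. After quantile normalization Glul was 0.29. Oat ranged from -0.81 to -0.33 over all alternatives. Over all alternatives, the limma adjusted p of Tbx3 ranged from 0.0850 to 0.892. The log2 fold change of Slc13a3 ranged from 0.68 to 1.13, and its limma adjusted p from 0.113 to 0.461. The other 6 genes lay between -0.14 (Lgr5) and 0.05 (Axin2), with Nkd1 at -0.11. With a constant of 0.1 in place of 1, Lgr5 and Nkd1 were both -0.20. At an adjusted p under 0.05 in limma, 0 of 10 genes were called, against 1.33% of the 9978 genes tested. An unadjusted p under 0.05 was reached by 1 of 10 (Slc13a3), against 15.1% of all tested genes. The groups did not overlap in 1 of 10 (Slc13a3), against 20.7%. Of the 10 log2 fold changes 4 were positive, and their median was -0.05. Over all tested genes, 48.3% were positive and the median was -0.01.

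PRF 50 vs. HFD addresses the effect of PRF on the fat-rich diet. Again, none of the 10 genes was called. Slc1a2 came nearest, with a mean ± SD of 5.15 ± 0.13 (HFD) and 5.46 ± 0.19 (PRF 50), 1.23-fold higher on this scale. The log2 fold change was 0.30, with a standard error of 0.12 and a 95% interval from 0.02 to 0.59 (limma, adjusted p = 0.216). Slc13a3 had a log2 fold change of 0.45 (interval -0.27 to 1.18, limma, adjusted p = 0.469). It depended on single mice, with 0.17 without PRF 50 mouse 3, 0.26 without HFD mouse 1, and 0.77 without PRF 50 mouse 10. Rnf43 and Nkd1 had 0.22 and 0.21, Lgr5 0.16, and Axin2 -0.18. Tbx3 had -0.098 and Znrf3 0.069, with ranges over the alternatives of -0.41 to 0.11 and 0.0024 to 0.12. Rnf43 was 0.078 without HFD mouse 1 and 0.37 without HFD mouse 3, and Nkd1 was 0.082 without PRF 50 mouse 10. After quantile normalization, Lgr5 was 0.10 and Nkd1 0.14, while a constant of 0.1 in place of 1 gave 0.25 and 0.34. Axin2 was -0.37, -0.095, and -0.064 without HFD mouse 1, 2, or 3. Glul and Oat were nearly level, at -0.04 (interval -0.35 to 0.26) and 0.01 (interval -0.52 to 0.54). An adjusted p under 0.05 was reached by 0 of 10 genes in limma, against 3.59% of the 10084 genes tested. At an unadjusted p under 0.05 the count was 1 of 10 (Slc1a2), against 20.2%. The groups did not overlap in 2 of 10, Slc1a2 and Lgr5, both higher in the PRF 50 group, against 26.2% of all tested genes. Of the 10 log2 fold changes 7 were positive, with a median of 0.12. Over all tested genes, 47% were positive, with a median of -0.02.

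PRF 50 vs. ND compares treated mice on the fat-rich diet with mice that never received it. None of the 10 genes was called here either. Slc13a3 had a mean ± SD of 3.54 ± 0.61 (PRF 50) against 2.20 ± 0.45 (ND), 2.53-fold higher on the log2(FPKM + 1) scale. The log2 fold change was 1.34, with a standard error of 0.33 and a 95% interval from 0.59 to 2.09 (limma, adjusted p = 0.148). Over the other settings and with single mice left out, it lay between 1.05 and 1.66, with a limma adjusted p between 0.0596 and 0.353. Oat had 8.50 ± 0.15 against 9.04 ± 0.40 and a log2 fold change of -0.54 with an interval from -1.02 to -0.05 (limma, adjusted p = 0.353). Without ND mouse 6, Oat was -0.32, and after quantile normalization it was -0.35. Its range over all alternatives was -0.70 to -0.32. Tbx3 had 0.27 and Slc1a2 0.25, Rnf43 0.17, Glul 0.14, and Axin2 -0.13, and the other 3 genes lay between -0.04 and 0.09. Tbx3 was 0.43 without PRF 50 mouse 10, and without PRF 50 mouse 9 Tbx3 and Slc1a2 were both 0.15. Glul was 0.22 without ND mouse 6, 0.066 without ND mouse 7, and 0.32 after quantile normalization. With a constant of 0.1 in place of 1, Axin2 was -0.19 and Nkd1 0.14. Over all alternatives, Axin2 ranged from -0.20 to -0.091. In limma, 0 of 10 genes reached an adjusted p under 0.05, against 0.458% of the 10051 genes tested. An unadjusted p under 0.05 was found for 2 of 10, Slc13a3 and Oat, against 12.5% of all tested genes. The groups did not overlap in 4 of 10, with Slc13a3 and Rnf43 higher and Oat and Axin2 lower in the PRF 50 group, against 19.9%. No test was made of these shares. The median over the 10 genes was 0.11, with 7 positive, against -0.03 and 43.4% positive over all tested genes. The ND mice also enter HFD vs. ND and the PRF 50 mice also enter PRF 50 vs. HFD, so the 3 comparisons are not independent.

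The intervals bound how far the members could have moved. Of the 30 intervals (10 genes in 3 comparisons), 25 lay within a 2-fold difference in either direction on the log2(FPKM + 1) scale. The 5 others were Oat in both comparisons with ND and Slc13a3 in all 3. With a constant of 0.1 in place of 1, which shrinks low genes less, 24 of 30 lay within it, and Tbx3 in HFD vs. ND was added to the exceptions. A p above the threshold does not show that the groups were equal, and differences within these bounds are not excluded with 3 mice per group.

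**Figure D2:**
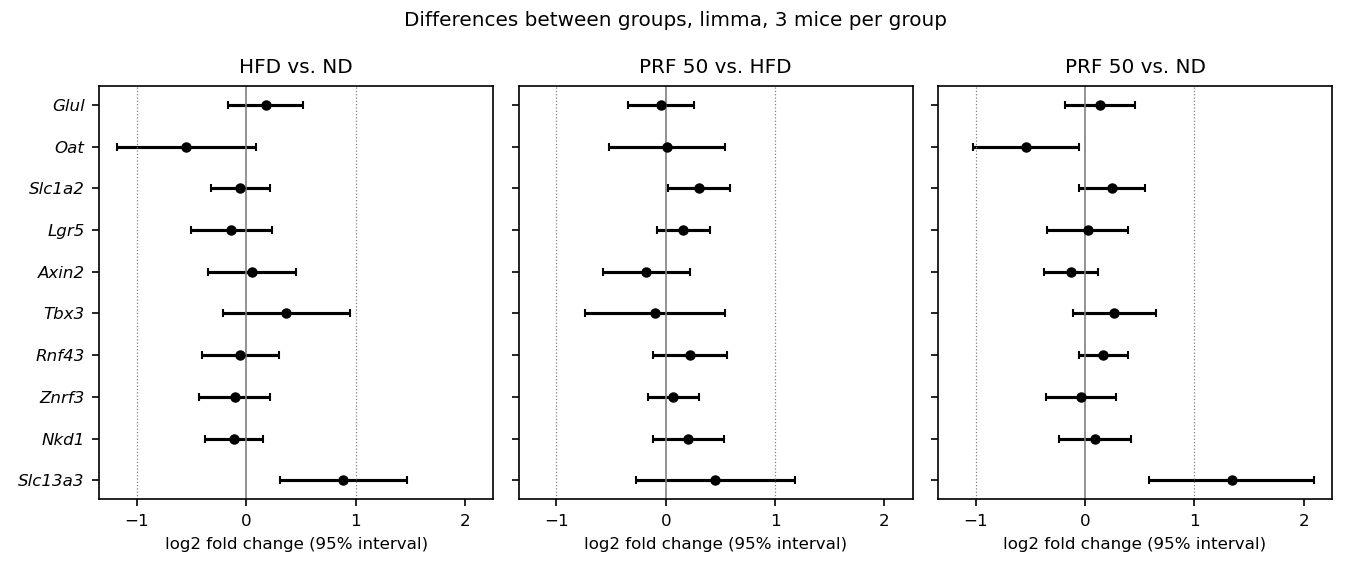
Log2 fold change of each gene (horizontal axis, points) with its 95% interval (bars) from limma in the 3 comparisons, 3 mice per group; the solid line marks 0 and the dotted lines a 2-fold difference. Most intervals include 0, and Slc13a3 lies to the right of 0 in HFD vs. ND (0.89) and in PRF 50 vs. ND (1.34).

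Much of the variation of these genes was between mice of the same group. HFD mouse 1 was the lowest of its group in 7 of the 10 members (Glul, Oat, Axin2, Tbx3, Rnf43, Nkd1, and Slc13a3), and HFD mouse 3 was the highest in 8. Over the 10048 genes averaging 1 FPKM or more, HFD mouse 1 was the lowest of its group in 35.2% and HFD mouse 3 the highest in 30.7%. Conversely, HFD mouse 1 was the highest in 41.4% of these genes and HFD mouse 3 the lowest in 34.7%. In 22 periportal genes the order differed, with HFD mouse 1 lowest in 1 and highest in 16. In 25 other pericentral genes, HFD mouse 1 was lowest in 11 and highest in 10, while HFD mouse 3 was lowest in 1 and highest in 13. In the PRF 50 group, mouse 10 was the lowest in 6 of the 10 members and 34.1% of all genes. In the ND group, mouse 7 was the highest in 5 members and 24.4% of all genes, and mouse 9 the lowest in 5 and 37.0%. ND mouse 9 was also the lowest in 21 of the 25 other pericentral and 11 of the 22 periportal genes. ND mouse 6 was the highest in 19 of the 25 and 14 of the 22, and in 42.5% of all genes. These shares describe single livers and were not tested.

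The endothelial markers were also low in HFD mouse 1. Of 12 such markers all were in the tables, none was at 0 in all livers, and the most abundant was Clec4g with a mean of 30.5 FPKM. Their summed level was 25.8, 60.8, and 86.0 FPKM in HFD mice 1, 2, and 3, and HFD mouse 1 was the lowest of its group in all 9 with a mean above 1 FPKM. The other groups ran the other way, with ND mouse 9 the highest in 9 of 9 and PRF 50 mouse 10 in 8 of 9, although these mice were the lowest of their groups in 5 and 6 members. The sum was 68.1, 88.1, and 113 FPKM in ND mice 6, 7, and 9, and 68.2, 64.2, and 108 FPKM in PRF 50 mice 3, 9, and 10. The WNT ligand gene Wnt2, which these endothelial cells express, was 0.23, 1.24, and 1.33 in HFD mice 1, 2, and 3 on the log2 scale. It was 0.69, 1.34, and 1.39 in the ND mice and 1.07, 0.87, and 1.36 in the PRF 50 mice. Their part in the levels of the members was not tested, nor was that of sequencing depth.

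Pairs of members were compared by their deviations from the group means over the 9 livers, as a description without a test. Pearson's r was above 0 in 25 of 45 pairs, with a median of 0.151, which was -0.0115 over the 6 livers outside the HFD group. Axin2 and Rnf43 varied together (r = 0.904), as did Axin2 and Tbx3 (0.855), Tbx3 and Rnf43 (0.834), and Lgr5 and Znrf3 (0.890). Glul and Oat had r = 0.738, and Glul and Znrf3 had -0.633. Over the 6 livers outside the HFD group, r was 0.940 for Axin2 and Rnf43 and 0.902 for Lgr5 and Znrf3. It was 0.169 for Axin2 and Tbx3 and 0.356 for Tbx3 and Rnf43, so these 2 pairs rest on the HFD mice. Lgr5 and Znrf3 had 0.401 over the 6 livers outside the ND group, so this pair rests on the ND mice. Axin2 and Rnf43 had 0.907 without the ND group and 0.905 without the PRF 50 group. The points share library, depth, and group size, and subtraction of a mean of 3 mice itself ties them together.

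**Figure D3:**
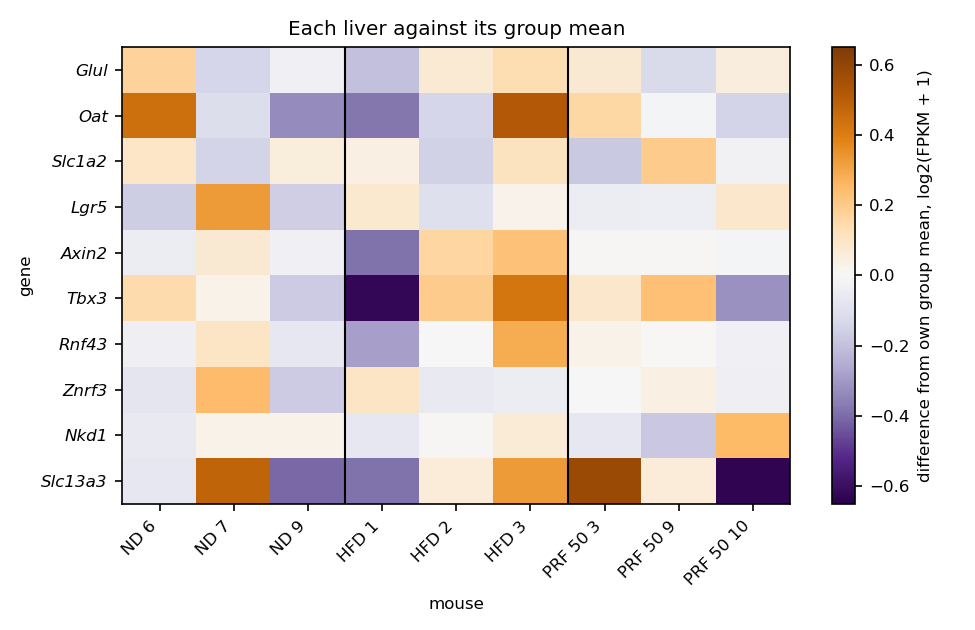
Difference of each liver from the mean of its own group in log2(FPKM + 1), by color, for the 10 genes (rows) and 9 mice (columns); black lines separate the groups. HFD mouse 1 is below its group mean in 7 of the 10 genes, among them Axin2, Tbx3, and Rnf43, and HFD mouse 3 is above it in all 7.

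The genes most like Glul over the 9 livers, among 10038 genes outside the members, were 1700001L05Rik (Pearson's r = 0.97, Spearman's rho = 0.97), Lzts2 (0.93 and 0.92), Med22 (0.91 and 0.92), Polr3e (0.90 and 0.85), and B3gntl1 (0.89 and 0.93). Those most like Axin2 were the glycine decarboxylase gene Gldc (0.94 and 0.95), Nek2 (0.93 and 0.90), E2f3 (0.92 and 0.98), Pgp (0.90 and 0.93), and Ubap2 (0.90 and 0.68). The median r over all 10038 genes was -0.02 for Glul and -0.01 for Axin2. Values this high are the top of a large search over 9 points and are given as a description.

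The other genes of the WNT pathway held no called gene in limma in the 3 comparisons. Of all tested genes, 1.33% were called in HFD vs. ND, 3.59% in PRF 50 vs. HFD, and 0.458% in PRF 50 vs. ND. Of 14 genes for ligands, R-spondins, and their secretion, 4 were tested, and 0 reached an unadjusted p under 0.05 in limma. The most abundant were Wnt5b (2.7 FPKM) and Rspo3 (2.19 FPKM), and Rspo2 and Rspo4 are listed at 0 in all livers. Of 17 receptors and co-receptors, led by Lgr4 (14.4 FPKM) and Ryk (12.0 FPKM), 10 were tested. An unadjusted p under 0.05 in limma was found for 2 in HFD vs. ND, 1 in PRF 50 vs. HFD, and 1 in PRF 50 vs. ND. Of 15 genes of the destruction complex and signal transducers, 14 were tested, and 1, 1, and 0 reached it in the same order, against 15.1%, 20.2%, and 12.5% of all tested genes. The β-catenin gene Ctnnb1 was the most abundant of them (61.7 FPKM), followed by Csnk1a1 (31.1 FPKM).

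Of 13 TCF/LEF factors and nuclear partners, 10 were tested. In limma, 0 were called, against 1.33%, 3.59%, and 0.458% of all tested genes in the 3 comparisons. An unadjusted p under 0.05 was reached by 4 in HFD vs. ND, all lower in the HFD group, by 3 in PRF 50 vs. HFD, all higher in the PRF 50 group, and by 0 in PRF 50 vs. ND, against 15.1%, 20.2%, and 12.5% of all tested genes. The same HFD mice enter the first 2 counts. The most abundant were the corepressor genes Ctbp1 (16.3 FPKM) and Tle1 (13.1 FPKM). Their log2 fold changes in HFD vs. ND were -0.01 and -0.52 (limma, adjusted p = 0.981 and 0.0936). The groups overlapped in Ctbp1 and not in Tle1. Of 14 secreted and other inhibitors, 2 were tested, Notum (12.7 FPKM) and Kremen1 (3.47 FPKM). In limma, 0 of these were called, and Notum alone reached an unadjusted p under 0.05, in PRF 50 vs. HFD, with a log2 fold change of 0.31.

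A few of the other pericentral hepatocyte genes were called. The 22 calls named from these and the following lists kept their sign under the alternatives that can move a fold change, but each lost its call under at least 1, mostly when 1 mouse was left out. Of 25 tested, limma called 1 higher and 1 lower in HFD vs. ND, and 1 higher and 3 lower in PRF 50 vs. HFD. In PRF 50 vs. ND, 0 were called. Of all tested genes, 1.33%, 3.59%, and 0.458% were called in the same order. Among the 25, an unadjusted p under 0.05 was reached by 3 higher and 7 lower, 3 higher and 4 lower, and 2 higher and 8 lower. The shares of all tested genes were 15.1%, 20.2%, and 12.5%. The aldehyde dehydrogenase gene Aldh3a2 rose by 0.90 in HFD vs. ND (limma, adjusted p = 0.0452) and fell by 1.44 in PRF 50 vs. HFD (limma, adjusted p = 0.0150). The glutathione transferase gene Gstm3 fell by 1.48 in HFD vs. ND (limma, adjusted p = 0.0483), and reads could be shared with its close paralogs. In PRF 50 vs. HFD, the vasopressin receptor gene Avpr1a rose by 1.16 (limma, adjusted p = 0.0344). The nuclear receptor gene Nr1i3 fell by 0.93 (limma, adjusted p = 0.0336) and the lipid droplet gene Fitm1 fell by 1.18 (limma, adjusted p = 0.0414).

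Of 22 periportal genes, limma called 1 in HFD vs. ND, 3 in PRF 50 vs. HFD, and 0 in PRF 50 vs. ND, against 1.33%, 3.59%, and 0.458% of all tested genes. Those with an unadjusted p under 0.05 were 3 higher and 9 lower, 4 higher and 4 lower, and 3 higher and 4 lower in the same order, against 15.1%, 20.2%, and 12.5%. The apolipoprotein gene Apoa4 rose by 2.86 in HFD vs. ND (limma, adjusted p = 0.0110) and fell by 2.10 in PRF 50 vs. HFD (limma, adjusted p = 0.0299). In the latter comparison, the glucose-6-phosphatase gene G6pc fell by 2.19 (limma, adjusted p = 0.0321) and the E-cadherin gene Cdh1 rose by 1.57 (limma, adjusted p = 0.0147). Of 19 genes of glutamine, ornithine, and ammonia handling, which surround the reactions of Glul and Oat, 14 were tested in HFD vs. ND and 15 in the other comparisons. In limma, 3 higher and 3 lower reached an unadjusted p under 0.05 in HFD vs. ND, and again 3 and 3 in PRF 50 vs. HFD, against 15.1% and 20.2% of all tested genes. The aspartate aminotransferase gene Got1 fell by 0.87 in HFD vs. ND (limma, adjusted p = 0.0208) and rose by 0.78 in PRF 50 vs. HFD (limma, adjusted p = 0.0249). The ornithine decarboxylase gene Odc1 fell by 0.45 in PRF 50 vs. HFD (limma, adjusted p = 0.0363). No gene of this list was called in PRF 50 vs. ND in limma, against 0.458% of all tested genes. There, 0 reached an unadjusted p under 0.05, against 12.5%. The median log2 fold changes of the other pericentral genes were 0.10, -0.15, and -0.19 in HFD vs. ND, PRF 50 vs. HFD, and PRF 50 vs. ND. Those of the periportal genes were -0.24, 0.19, and -0.12. Whether the members differ from these lists was not tested.

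**Figure D4:**
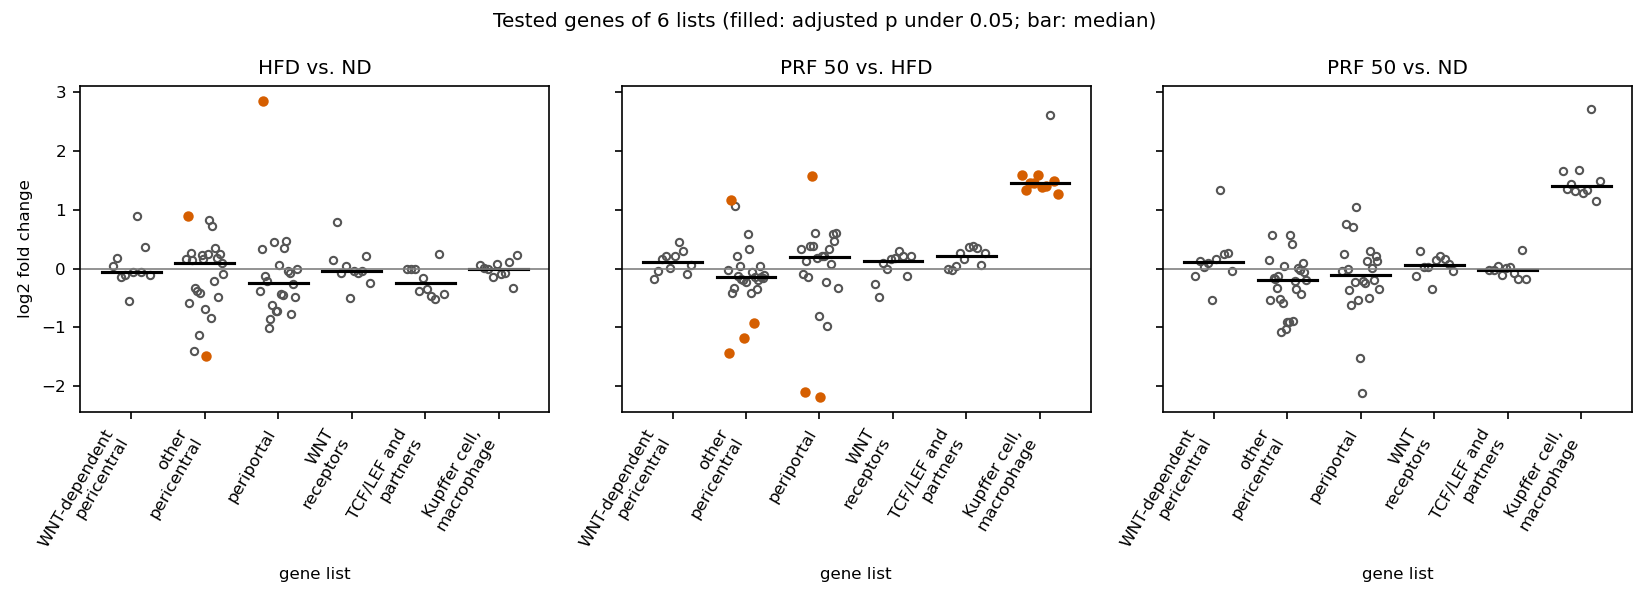
Log2 fold changes (vertical axis) of the tested genes of 6 lists in the 3 comparisons; each point is a gene, filled where the adjusted p from limma is under 0.05, and bars show medians. The WNT-dependent pericentral genes, WNT receptors, and TCF/LEF factors hold no filled points. In PRF 50 vs. HFD, 9 of 10 Kupffer cell and macrophage genes are filled, against 3.59% of all tested genes called. The lists were chosen with earlier results of these data known.

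Kupffer cell and macrophage markers were called by limma in PRF 50 vs. HFD alone. In HFD vs. ND, 0 of 10 were called and 0 reached an unadjusted p under 0.05, against 1.33% and 15.1% of all tested genes. In PRF 50 vs. HFD, limma called 9 of 10 higher, against 3.59% of all tested genes called in either direction. The authors' own list of changed genes for this comparison holds Clec4f, Vsig4, Cd5l, Marco, C1qa, C1qb, C1qc, and Csf1r. The markers were chosen with earlier results of these data known, so this count is not independent support. Cd5l, the most abundant (54.1 FPKM), rose by 1.59, Adgre1 by 1.60, Timd4 by 1.49, C1qb by 1.45, and C1qc by 1.45. Csf1r rose by 1.40, Clec4f by 1.38, C1qa by 1.34, and Vsig4 by 1.27. The exception was Marco (log2 fold change 2.61; limma, adjusted p = 0.135), and none was at 0 in all livers. Their summed level was 610, 370, and 391 FPKM in PRF 50 mice 3, 9, and 10, against 111, 177, and 177 in HFD mice 1, 2, and 3 and 92.4, 173, and 217 in ND mice 6, 7, and 9. In PRF 50 vs. ND, 0 of the 10 were called in limma, against 0.458% of all tested genes. All 10 reached an unadjusted p under 0.05 there, against 12.5% of all tested genes. The summed hepatocyte markers overlapped between groups, at 47600, 43414, and 37875 FPKM (PRF 50), 51283, 43714, and 40096 (HFD), and 52261, 38736, and 34472 (ND). Apoa2 makes up much of this sum, and single markers differed in direction. In limma, 0 of 9 were called in any comparison. In PRF 50 vs. HFD, 1 higher and 2 lower reached an unadjusted p under 0.05, against 20.2% of all tested genes. The groups did not overlap in 1 higher and 3 lower, against 26.2%. The 10 members summed to 966, 864, and 874 FPKM (PRF 50), 746, 885, and 1109 (HFD), and 1248, 926, and 886 (ND), most of it from Glul and Oat. Neutrophil markers, 4 of 5 of them in the tables, none at 0 in all livers, and led by S100a8 (6.12 FPKM), summed to 54.5, 18.2, and 3.15 FPKM in PRF 50 mice 3, 9, and 10. Their sum was 4.0, 3.71, and 4.62 FPKM in HFD mice 1, 2, and 3 and 2.53, 8.92, and 6.22 in ND mice 6, 7, and 9. In limma, 0 of 2 tested neutrophil markers were called in PRF 50 vs. HFD, against 3.59% of all tested genes. An unadjusted p under 0.05 was reached by 1, higher, against 20.2%. Of 8 stellate cell and fibroblast markers tested in PRF 50 vs. HFD, limma called 0, and 2, both lower, reached an unadjusted p under 0.05. The share of all tested genes was 20.2%. In HFD vs. ND, 0 of 8 were called and 2, both higher, reached it, against 15.1%. There, 7 of 8 fold changes were positive, against 48.3% of all tested genes. In PRF 50 vs. ND, 0 of 7 reached it, against 12.5%, and all 7 were positive, against 43.4% of all tested genes. The part of the RNA of these cells in the members' values was not tested.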

How the data were processed

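Liver RNA of 9 mice was sequenced from poly(A)-selected, directional libraries, and mice were grouped by the sample labels. Reads were trimmed and mapped with TopHat by the authors (genome build mm10 in the submitters' processing notes; version not given in the sources used here). The authors derived FPKM with Cufflinks, normalized it geometrically, and deposited it for each symbol and liver as log2 values, here treated as log2(FPKM + 1); the constant of 1 is inferred from the lowest value of 0. Whether strand was used in counting, and the annotation, are not given in the sources used here. Depth is known only in relative terms, so no counting error is given.

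Groups were compared with limma (version 3.58.1; lmFit and eBayes with a trend) in R (version 4.3.3), on the log2 values of the 3 + 3 mice compared, for genes averaging 1 FPKM or more over them. Tests were two-sided and every p-value is from limma, adjusted over all genes tested by the Benjamini-Hochberg method, with a threshold of 0.05. The fit was tested on simulated data. All members are named. Of each other list, the genes past the threshold are named, otherwise its most abundant ones, and exceptions are marked. The members and lists were chosen with earlier results of these data known. Alternatives were all 9 mice in 1 fit, other minimum levels (none, 0.1, and 10 FPKM), a constant of 0.1, scaling by median ratios, quantile normalization, a fit whose eBayes step had no trend, and leaving out each mouse. Promoters are from RefSeq (GRCm38.p6) and gene positions from GENCODE (release M21, GRCm38).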

Additional observations from a re-analysis of the deposited data

How the results depend on the processing

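No member passed an adjusted p of 0.05 in limma in any comparison under any alternative listed in the methods. All 9 mice in 1 fit, other minimum levels, and a fit without a trend leave a fold change as it is by construction and can change only its p. Of the members' 270 fold changes under the remaining alternatives, 250 kept their sign and 20 changed it. Without a minimum level, 37 genes were called in HFD vs. ND (133 with it), 126 in PRF 50 vs. HFD (362), and 11 in PRF 50 vs. ND (46), with more genes tested. With all 9 mice in 1 fit, 107 were called in PRF 50 vs. ND, and the cause was not tested. The number called also moved with fewer mice in each fit. In HFD vs. ND it ranged from 35 to 140 with single mice left out, and it was 41 without HFD mouse 2, 35 without HFD mouse 3, 63 without ND mouse 6, and 39 without ND mouse 7. In PRF 50 vs. HFD it ranged from 15 to 242 with single mice left out, and it was 215 without HFD mouse 1, 31 without HFD mouse 2, 15 without HFD mouse 3, 40 without PRF 50 mouse 3, and 168 without PRF 50 mouse 10. In PRF 50 vs. ND it ranged from 4 to 71 with single mice left out, and it was 17 without ND mouse 6, 4 without ND mouse 7, 8 without PRF 50 mouse 3, 26 without PRF 50 mouse 9, and 71 without PRF 50 mouse 10.

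After quantile normalization, the log2 fold change of Glul was 0.030 in PRF 50 vs. HFD and that of Lgr5 -0.044 in PRF 50 vs. ND, each with the opposite sign without it. Other changes of sign came from leaving out single mice, given here as the range of the log2 fold change and the mice whose absence changed the sign. For HFD vs. ND these were Rnf43 (-0.20 to 0.089; HFD mouse 1), Slc1a2 (-0.13 to 0.019; HFD mouse 2), Axin2 (-0.063 to 0.24; HFD mouse 2 and HFD mouse 3), Lgr5 (-0.22 to 0.025; ND mouse 7), and Znrf3 (-0.19 to 0.018; ND mouse 7). For PRF 50 vs. HFD these were Oat (-0.18 to 0.27; HFD mouse 1, HFD mouse 2, and PRF 50 mouse 3), Glul (-0.14 to 0.026; HFD mouse 3 and PRF 50 mouse 9), and Tbx3 (-0.41 to 0.11; HFD mouse 3 and PRF 50 mouse 10). For PRF 50 vs. ND these were Lgr5 (-0.061 to 0.19; ND mouse 6, ND mouse 9, and PRF 50 mouse 10), Znrf3 (-0.12 to 0.087; ND mouse 7), and Nkd1 (-0.032 to 0.18; PRF 50 mouse 10). The cause was not tested. The 22 calls among genes of the other lists were also refitted under these alternatives, a step chosen after seeing the data. Of the 198 values whose fold change could move, 0 changed sign. Of all 304 values, 189 kept the call and 115 lost it, 87 of them with a mouse left out and 17 without a minimum level. Calls were lost for 21 of the 22 without HFD mouse 3, 19 without HFD mouse 2, 8 without HFD mouse 1, and, of the 18 in PRF 50 vs. HFD, for 17 without PRF 50 mouse 3, 10 without PRF 50 mouse 10, and 4 without PRF 50 mouse 9. A minimum of 10 FPKM left Glul, Oat, and Slc1a2 as the members to test. No paired analysis was possible because the mouse numbers name animals and no 2 groups share more than 1 number. Read counts were not used, so how far depth limits the least abundant members is not known.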
